A study of Mus musculus with 21 samples.

Results

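The mRNAs of 9 integrin subunits carried by leukocytes (Itga4, Itga6, Itgal, Itgae, Itgav, Itgb1, Itgb2, Itgb3 and Itgb7) were followed in splenic CD4+ T cells after immunization with peptide. The members were taken by gene symbol from the normalised expression table and matched by identifier to the count table, where they are 9 of 47643 genes, and all 9 were among the 15300 genes with at least 10 counts over all libraries. The cells came from Tg4 Nr4a3-Tocky Tiger mice, and every group, the control included, carries the same alleles: a transgenic T cell receptor for a peptide of myelin basic protein (MBP), the Timer reporter of Nr4a3 transcription and an Il10-GFP reporter. Immunized mice were given the [4Y] MBP peptide under the skin without adjuvant, at a dose of either 0.8 µg or 80 µg, and their spleens were taken after 4 h, 12 h or 24 h, while control cells came from mice left unimmunized. The 7 groups hold 3 libraries each, described as biological triplicates, so 21 libraries in all. Neither age nor the sex of the animals behind a library is given in the labels. Timer protein is blue when new and red when mature, and the sort took Blue+Red- cells for the 4 h groups, Blue+Red+ cells for the 12 h groups and Blue-Red+ cells for the 24 h groups. The gate and the time therefore cannot be told apart. The model is limited to T cells with a transgenic receptor and to a single peptide.

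Integrins are pairs of an alpha and a beta chain that span the membrane and bind adhesion molecules on other cells or in the matrix. On T cells, alpha L with beta 2 forms LFA-1, which binds ICAM-1 and holds the immunological synapse together. Alpha 4 pairs with beta 1 (VLA-4, a receptor for VCAM-1) or with beta 7 (a receptor for MAdCAM-1 on gut vessels), alpha E pairs with beta 7 to bind E-cadherin, alpha 6 pairs with beta 1 to bind laminin, and alpha v pairs with beta 3, beta 1 or other beta chains to bind vitronectin and latent TGF-beta. Their affinity is switched by signals inside the cell, in which talin and kindlin-3 bind the beta tail after activation of Rap1.

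Library totals ran from 2352800 to 6244279 counts, and the rlog values of libraries of 1 group had a Pearson r of 0.990 to 0.993 across genes, which are not independent replicates. Values are counts divided by DESeq2 size factors (normalised read counts), given as mean ± SD with n = 3 libraries. Each read marks the 3′ end of a transcript, so values compare 1 gene between groups and not different genes. A gene was called changed when its adjusted p was under 0.05 and its shrunken log2 fold change was over 1 in size. The CD4 T cell markers fixed for the sorted population (Cd4, Cd3d, Cd3e, Cd3g, Trac, Trbc1 and Trbc2) were above 0 in every group. Their sum was 3189 to 3400 CPM (counts scaled to a common library total) in control, 1642 to 2003 at 4 h, 1438 to 1742 at 12 h and 2768 to 3169 at 24 h, so it was lowest at 4 h and 12 h. At these times 3 and 6 of the 7 were called lower than control with 0.8 µg (23.4% and 20.5% of all genes tested). With 80 µg 5 and 4 were called lower (25.1% and 20.1%). The part of this fall in the members' values was not tested. In bulk RNA, fewer cells carrying a transcript and less of it per cell cannot be told apart.

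RefSeq promoter windows were found for 4 of the 9 members (Itga4, Itgav, Itgb1 and Itgb7), and all 4 are printed. Of these genes, Itga4 and Itgb7 fell deeply at 4 h while Itgav and Itgb1 did not. No window was found for Itga6 and Itgb3, which also fell deeply, or for Itgal, Itgae and Itgb2. Each run is the 250 bases before the RefSeq start in GRCm38.p6, read 5′ to 3′ on the gene's strand, with every CACCC or its reverse complement GGGTG, the box bound by Krüppel-like factors, in capitals. The windows are chr2:79255176-79255425 on the plus strand for Itga4, chr15:102231936-102232185 on the minus strand for Itgb7, chr2:83724147-83724396 on the plus strand for Itgav and chr8:128685404-128685653 on the plus strand for Itgb1.
Itga4: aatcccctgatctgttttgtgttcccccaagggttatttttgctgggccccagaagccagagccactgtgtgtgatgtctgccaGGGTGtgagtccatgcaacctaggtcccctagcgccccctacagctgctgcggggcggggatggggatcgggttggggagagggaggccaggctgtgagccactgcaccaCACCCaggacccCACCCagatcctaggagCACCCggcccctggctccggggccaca
Itgb7: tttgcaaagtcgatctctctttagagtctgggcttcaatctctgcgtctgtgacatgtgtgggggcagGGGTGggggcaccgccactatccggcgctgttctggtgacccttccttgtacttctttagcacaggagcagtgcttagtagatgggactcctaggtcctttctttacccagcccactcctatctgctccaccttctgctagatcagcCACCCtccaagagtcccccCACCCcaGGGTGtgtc
Itgav: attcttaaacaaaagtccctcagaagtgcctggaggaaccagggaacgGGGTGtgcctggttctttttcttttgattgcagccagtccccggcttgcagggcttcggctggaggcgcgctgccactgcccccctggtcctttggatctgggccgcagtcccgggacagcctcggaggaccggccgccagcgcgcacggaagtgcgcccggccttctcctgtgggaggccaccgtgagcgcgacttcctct
Itgb1: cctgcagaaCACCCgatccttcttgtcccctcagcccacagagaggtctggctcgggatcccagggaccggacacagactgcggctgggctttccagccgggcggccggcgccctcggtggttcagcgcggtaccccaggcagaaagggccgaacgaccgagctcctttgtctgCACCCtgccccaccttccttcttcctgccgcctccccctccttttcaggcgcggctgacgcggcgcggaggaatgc
The Itga4 window held 4 such matches, the Itgb7 window 4, the Itgb1 window 2 and the Itgav window 1. At least 1 match was found in 52.0% of all 32807 promoter windows of this length, and 4 or more were found in 2.14%. The cutoff of 4 equals the count in the Itga4 and Itgb7 windows, so the second share is no test of them. The RUNX core TGTGGT (reverse ACCACA) occurred once, in Itga4, sharing 2 bases with a CACCC match, and in 14.0% of all windows. The ETS core GGAAG (reverse CTTCC) occurred 2 times in Itgav, 2 times in Itgb1 and 1 time in Itgb7, and in 64.1% of all windows. A forkhead core GTAAACA (reverse TGTTTAC; 3.16% of all windows) and a kappaB site GGACTTTCC (reverse GGAAAGTCC; 0.283%) were not among the letters of these 4 windows. These matches are letters in a window, described without a test, and no binding was measured here.

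The first question was how the subunits of the alpha 4 and beta 7 family moved from the control state and whether the amount of peptide mattered. Both chains of the gut-homing receptor lost nearly all of their mRNA by 4 h at either dose and rose again by 24 h, but they differed in where the dose showed: for Itga4 at 4 h, and for Itgb7 at 12 h and 24 h.

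Itga4 (ENSMUSG00000027009, chromosome 2, 79255426 to 79333123 on the plus strand of GRCm38, protein coding) encodes alpha 4. Its normalised read counts in the control libraries were 1197, 1123 and 1202. At 4 h they were 117, 109 and 80.9 with 0.8 µg and 45.1, 32.9 and 30.01 with 80 µg. All 3 libraries of the higher dose lay under all 3 of the lower dose. The means, 36.0 ± 8.03 against 102 ± 19.0, differed 2.84-fold, with a shrunken log2 fold change of -1.49 ± 0.24 (SE) and an adjusted p of 1.45e-08. The call was kept under every alternative run, with log2 values of -1.64 to -1.34. These levels were 3.07% and 8.73% of the control mean. At 12 h the values were 213, 234 and 159 with 0.8 µg and 220, 188 and 142 with 80 µg, and at 24 h they were 694, 633 and 984 against 729, 729 and 510. The doses overlapped at both later times, and the 95% interval of the unshrunken log2 difference ran from -0.53 to 0.24 at 12 h and from -0.59 to 0.13 at 24 h. At 24 h Itga4 was still at 65.6% of control with 0.8 µg and 55.9% with 80 µg, changes with adjusted p of 0.00375 and 2.71e-05 that did not reach the fold threshold. In the order of the 7 group means, control stood highest and the 80 µg group at 4 h lowest, and only the 2 doses at 24 h and the 2 doses at 12 h overlapped with their neighbour. Exons of Itga4 overlap those of Cerkl on the other strand, and the strand setting of the counting step is not given, so reads of the 2 genes may have been pooled.

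Itgb7 (ENSMUSG00000001281, chromosome 15, 102215995 to 102231944 on the minus strand) encodes beta 7. Control libraries held 879, 757 and 899 normalised read counts. At 4 h the values were 34.3, 26.3 and 14.0 with 0.8 µg and 16.2, 19.4 and 13.7 with 80 µg, which is 2.95% and 1.94% of control, and the doses overlapped. At 12 h the values were 40.2, 51.1 and 25.8 with 0.8 µg and 72.2, 82.9 and 88.5 with 80 µg. Every library of the higher dose was above every library of the lower dose, and the means were 81.2 ± 8.28 and 39.1 ± 12.7. At 24 h the values were 337, 357 and 511 with 0.8 µg and 927, 798 and 870 with 80 µg, so the groups were again apart. The high-dose mean at 24 h, 865 ± 64.8, was 102% of control, with control and high-dose libraries overlapping, while the low-dose mean, 402 ± 95.2, was 47.5% of control. The shrunken log2 dose difference at 24 h was 1.10 ± 0.17 (SE) with an adjusted p of 1.84e-08. At 12 h it was 1.00 ± 0.22 with an adjusted p of 0.000302, which sits on the fold threshold. That call was lost when 0.8 µg replicate 1 or 3, or 80 µg replicate 2 or 3, was left out (log2 0.80 to 0.99) and when only the 6 libraries compared were fitted (0.76). The 24 h call was lost without 0.8 µg replicate 1 (0.995) and in the fit to 6 libraries (0.995), in both cases by the fold alone. The low-dose call against control at 24 h, -1.07, was lost in the same way without 0.8 µg replicate 1 (-0.96) or replicate 2 (-0.995).

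**Figure D1:**
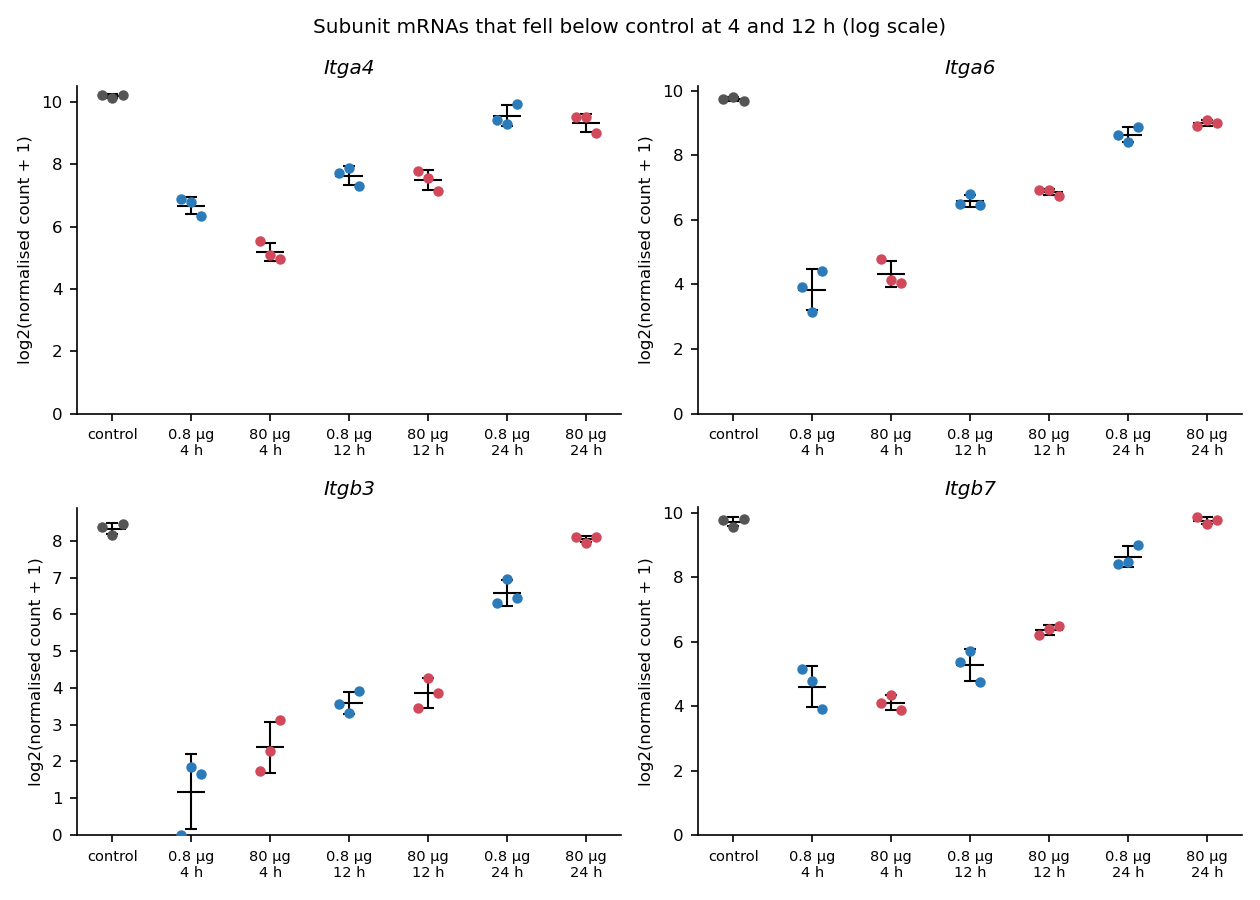
Normalised read counts of Itga4, Itga6, Itgb3 and Itgb7 as log2(count + 1) in each of 21 libraries (dots), with the mean and SD of each group of 3 (black). All 4 dropped far below control at 4 h, and at 24 h the 80 µg libraries of Itgb3 and Itgb7 (red) stood above those given 0.8 µg (blue).

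Itgb3 and Itga6 followed the same course of a deep early fall and a later rise. Itgb3 (ENSMUSG00000020689, chromosome 11, 104608000 to 104670476, plus strand) encodes beta 3, best known from the platelet fibrinogen receptor and from the vitronectin receptor. Control libraries held 330, 285 and 350 normalised read counts. At 4 h the raw counts were 0, 2 and 2 with 0.8 µg and 2, 4 and 9 with 80 µg. The low-dose libraries were thus at or under a floor of 3 counts per library, which puts them at least 94.4-fold lower than control. By the same floor the 80 µg mean was at least 1.36-fold higher than the 0.8 µg mean, a difference that did not pass the test (adjusted p = 0.206 for the dose). At 12 h the normalised read counts were 10.8, 9.03 and 14.1 with 0.8 µg and 10.05, 18.3 and 13.6 with 80 µg, with overlap between doses. At 24 h they were 77.9, 124 and 85.7 with 0.8 µg and 272, 245 and 275 with 80 µg. Every high-dose library was above every low-dose library, with means of 264 ± 16.6 and 95.9 ± 24.7, a shrunken log2 difference of 1.45 ± 0.21 (SE) and an adjusted p of 5.12e-09. This was 82.1% of control with the higher dose and 29.8% with the lower. The call was kept under every alternative run, with log2 values of 1.25 to 1.69. Of the 7 platelet and megakaryocyte markers, summed levels were 5.53 CPM or less in every library. Ppbp, Gp9, Gp1bb, Gp6 and Treml1 were at 0 in all control libraries, and Gp6 and Treml1 were at 0 in all 21.

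Itga6 (ENSMUSG00000027111, chromosome 2, 71745616 to 71858416, plus strand) encodes the laminin receptor chain alpha 6. It ranged from 821 to 897 normalised read counts in control libraries and from 7.90 to 26.6 over the 6 libraries at 4 h, where the means were 1.65% of control with 0.8 µg and 2.27% with 80 µg. It then climbed to 86.9 to 121 at 12 h and to 339 to 548 at 24 h. No dose comparison of Itga6 passed the test. The 95% intervals of the log2 dose difference were -0.25 to 1.03 at 4 h, -0.07 to 0.60 at 12 h and 0.08 to 0.63 at 24 h (adjusted p = 0.116). Against control, the 24 h values were 46.7% with 0.8 µg, called lower at a log2 of -1.09, and 59.7% with 80 µg, at -0.74 and under the fold threshold. The first of these calls was lost without 0.8 µg replicate 2 (-0.99).

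The B cell markers moved with these 4 genes in part. The 6 genes summed to 392 to 445 CPM in control libraries, 36.00 to 75.9 at 4 h and 35.4 to 115 at 12 h. At 24 h the sum was 285 to 348 with 0.8 µg and 379 to 414 with 80 µg, so it too was higher with the higher dose, without overlap. Cd79a was at 0 in all libraries of 3 of the 7 groups. Most of the sum was Ighm, with 1150 ± 47.6 normalised read counts in control, 84.8 ± 3.13 at 4 h with 80 µg, and 1016 ± 27.5 and 1478 ± 72.7 at 24 h with 0.8 µg and 80 µg. Ighm was higher with 80 µg at 24 h (log2 0.54, adjusted p = 0.00144, under the fold threshold), in the direction of Itgb7 and Itgb3. Ms4a1, Cd79b and Pax5 had lower means with 80 µg at 24 h and did not pass the test between doses (adjusted p = 0.201, 0.565 and 0.449). Against control at 24 h with 80 µg, these 3 of 5 tested markers were still called lower (log2 -2.001, -1.51 and -2.09 for Ms4a1, Cd79b and Pax5), where 7.91% of all genes tested were called lower. Ighm was slightly higher in this comparison (log2 0.36, adjusted p = 0.0158) and Igkc did not pass the test (log2 -1.35, adjusted p = 0.132). The part of these markers in the members' values was not tested.

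LFA-1 took another course. At 4 h its chains kept most of their mRNA with 0.8 µg and were lower with 80 µg. Itgal (ENSMUSG00000030830, chromosome 7, 127296260 to 127335138, plus strand) ranged from 685 to 812 normalised read counts in control, from 671 to 827 at 4 h with 0.8 µg and from 351 to 396 at 4 h with 80 µg. Itgb2 (ENSMUSG00000000290, chromosome 10, 77530252 to 77565708, plus strand) ranged from 429 to 455 in control, from 352 to 414 with 0.8 µg and from 197 to 226 with 80 µg. In both genes the high-dose libraries lay under all others at this time. The shrunken log2 dose difference at 4 h was -0.996 ± 0.13 (SE) for Itgal (adjusted p = 3.20e-13) and -0.89 ± 0.14 for Itgb2 (adjusted p = 9.40e-09). Both passed the test on p and stopped short of the fold threshold. Itgal crossed it without 0.8 µg replicate 1 (-1.07) or without 80 µg replicate 1 or 2 (-1.001 and -1.03), and with unshrunken values (-1.0004).

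Over the later times the 2 chains parted. Itgal rose above control with 0.8 µg, to 134% at 12 h and 151% at 24 h (log2 0.43 and 0.59, adjusted p = 0.00135 and 1.06e-05, under the fold threshold), and was lower with 80 µg than with 0.8 µg at 12 h (log2 -0.48, adjusted p = 0.00242). At 24 h the difference of Itgal was -0.34 with an adjusted p of 0.0635. Itgb2 was still below control at 12 h, at 61.2% with 0.8 µg and 49.8% with 80 µg, and the higher dose gave more Itgb2 at 24 h, 489 ± 48.9 against 364 ± 29.7 (log2 0.42 ± 0.13, adjusted p = 0.0283). The sign of the Itgb2 dose difference thus changed between 4 h and 24 h. Among the calls against control, Itgal at 4 h with 80 µg (log2 -1.01) and Itgb2 at 12 h with 80 µg (-1.01) lay on the threshold. The Itgal call was lost without control replicate 1 or 3 or 80 µg replicate 3 (-0.95 to -0.99), and by edgeR (-0.98), with TMM (-0.97) and in the fit to 6 libraries (-0.99). The Itgb2 call was lost without control replicate 2 or 3 or 80 µg replicate 2 or 3 (-0.87 to -0.997), and under the same 3 alternatives (-0.98, -0.97 and -0.92). In the same libraries at 4 h, 3 of the 7 CD4 T cell markers were called lower with 80 µg than with 0.8 µg and 0 higher (5.85% of all genes tested were called, in either direction). They were the coreceptor Cd4 (220 ± 49.2 against 845 ± 122, log2 -1.93, adjusted p = 8.02e-39) and the CD3 chains Cd3g (88.5 ± 11.5 against 199 ± 14.6) and Cd3e (327 ± 51.7 against 663 ± 54.4). Cd3d passed on p alone in the same direction (log2 -0.86), Trac passed on p alone in the other (log2 0.33, adjusted p = 0.0165), and Trbc1 and Trbc2 did not pass (log2 -0.06 and -0.002).

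Itgb1 and Itgav were the members that rose early. Itgb1 (ENSMUSG00000025809, chromosome 8, 128685654 to 128733200, plus strand) encodes beta 1, the shared chain of the VLA receptors. It ranged from 186 to 297 normalised read counts in control, from 348 to 425 at 4 h with 0.8 µg and from 403 to 475 with 80 µg, so neither dose overlapped with control. The log2 change was 0.77 ± 0.18 (SE) with 0.8 µg (adjusted p = 9.47e-05) and 0.93 ± 0.18 with 80 µg (adjusted p = 1.45e-06), both under the fold threshold, although the second crossed it without control replicate 3 (1.14). The doses did not differ beyond their spread at any time, and the 95% interval of the log2 dose difference stayed between -0.53 and 0.56. Itgav (ENSMUSG00000027087, chromosome 2, 83724397 to 83806916, plus strand) encodes alpha v. It ranged from 48.4 to 70.0 in control and from 112 to 133 at 4 h with 80 µg, a called rise of log2 1.07 ± 0.27 (adjusted p = 0.000191), while the 0.8 µg libraries spread from 47.4 to 97.9. The dose difference of Itgav at 4 h was 0.71 ± 0.26 with an adjusted p of 0.0528, and the libraries of the doses did not overlap. The call against control was lost without control replicate 1 (0.96) or 80 µg replicate 2 (0.99). At 12 h and 24 h Itgav lay between 37.97 and 73.4 in all libraries. Exons of Itgav overlap those of Gm13684 on the other strand.

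Itgae (ENSMUSG00000005947, chromosome 11, 73090583 to 73147446, plus strand), the alpha E chain of epithelial T cells, was close to absent. Raw counts were 5, 0 and 2 in control, 0 in all 6 libraries at 4 h, and between 0 and 3 at 12 h. At 24 h they were 10, 18 and 22 with 0.8 µg and 6, 2 and 17 with 80 µg, with overlap. The low-dose libraries at 24 h were above all control libraries, with an adjusted p of 0.0771, and this difference was called by edgeR (adjusted p = 0.0486) and in the fit to 6 libraries (0.0123). At 4 h with 0.8 µg the adjusted p of Itgae against control was 0.0518, and edgeR (0.0409) and the fit without control replicate 2 (0.0239) called it lower. Itgae was called lower at 4 h with 80 µg (adjusted p = 0.0380), which rests on 7 counts in control and 0 after immunization, and no fold is given because the control mean is under the floor of 3 counts per library. The call was lost without any 1 of 5 of the 6 libraries (adjusted p = 0.0654 to 0.215), namely control replicate 1 or 3 or any 80 µg library, and when libraries were thinned to equal depth (0.177). Itgae also marks regulatory T cells. Of 5 genes listed as their markers, 1 was called higher and 3 lower than control at 4 h with 0.8 µg. Itgae was not among them. With 80 µg at 4 h, 2 were higher and 2 lower, Itgae among the latter. Of all genes tested, 17.3% and 23.4% were called higher and lower with 0.8 µg, and 18.4% and 25.1% with 80 µg. At 12 h, 1 was higher and 1 lower with 0.8 µg (17.2% and 20.5%), and 2 higher and 0 lower with 80 µg (17.8% and 20.1%). Against control at 24 h the other 4 markers of that list, Foxp3, Ikzf2, Il2ra and Ctla4, were all called higher at both doses, with log2 values of 1.38 to 2.86 with 0.8 µg and 1.20 to 3.24 with 80 µg, where 11.5% and 12.3% of all genes tested were called higher. Between doses, Il2ra and Ctla4, which activated T cells express as well, were higher with 80 µg at 4 h (Il2ra 4206 ± 99.7 against 1323 ± 317, Ctla4 344 ± 85.3 against 3.46 ± 2.15) and at 12 h, and Foxp3, named after its values were seen, was higher at 4 h (17.8 ± 3.47 against 3.92 ± 2.35). Ikzf2 was lower with 80 µg at 12 h (121 ± 17.9 against 396 ± 30.02) and 24 h (584 ± 52.0 against 1454 ± 386). Among markers of CD8 T and NK cells, Cd8a (3.84 ± 1.73 against 53.8 ± 6.93) and Cd8b1 were lower with 80 µg at 12 h. At 24 h Cd8a was lower (1.76 ± 1.59 against 14.3 ± 0.79, log2 -2.51, adjusted p = 0.00301) and Klrd1 was higher (33.9 ± 4.31 against 8.78 ± 1.77), and the myeloid marker Lyz2 was lower at 4 h (6.11 ± 5.84 against 53.1 ± 38.9). The part of these genes in the members' values was not tested.

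**Figure D2:**
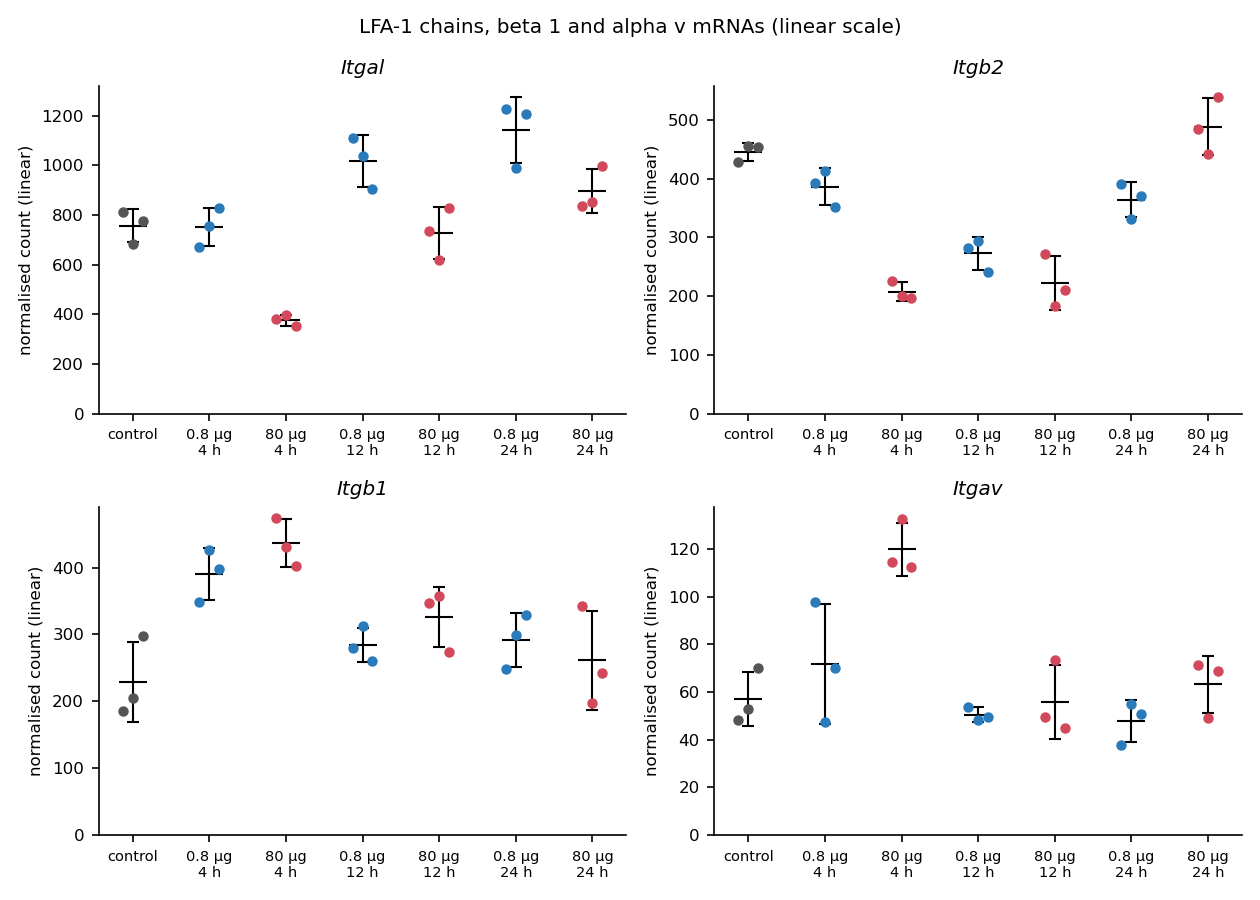
Normalised read counts, on a linear axis, of Itgal, Itgb2, Itgb1 and Itgav in each library (dots) with group mean and SD (black). Itgal and Itgb2 had their lowest means at 4 h with 80 µg (red), where Itgb1 and Itgav had their highest.

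Read over all members, the comparisons with control gave more lower than higher calls at 4 h and 12 h. With 0.8 µg at 4 h, 4 of the 9 were called lower and 0 higher, against 23.4% lower and 17.3% higher of all genes tested. The 4 were Itga4, Itga6, Itgb3 and Itgb7. With 80 µg at 4 h, 7 were called lower and 1 higher (25.1% and 18.4% of all genes). At 12 h, 4 were called lower and 0 higher with 0.8 µg (20.5% and 17.2%), and 5 were lower and 0 higher with 80 µg (20.1% and 17.8%). At 24 h, 3 were lower with 0.8 µg and 0 higher (5.84% and 11.5%). With 80 µg at 24 h DESeq2 called 0 lower and 0 higher (7.91% and 12.3%), edgeR called 0 as well, 3 members had an unadjusted p under 0.05, and Itga4 and Itga6 passed the adjusted p alone. All 6 comparisons share the 3 control libraries. Without control replicate 1, the calls with 80 µg at 4 h went from 8 to 5, and without 0.8 µg replicate 2 those at 24 h went from 3 to 1. Itgae was left out of the medians, since no fold is given for it. At 4 h the median shrunken log2 fold change of the other 8 members was -1.85 with 0.8 µg and -3.04 with 80 µg. Over all genes tested it was -0.13 and -0.15. The members split into separate sets, and their median lay in the gap between them. With 0.8 µg, Itga6, Itgb7 and Itga4 were at -5.78 to -3.48 and Itgb3 was at least 94.4-fold lower. Itgal, Itgb1, Itgb2 and Itgav were at -0.21 to 0.77. With 80 µg the same sets were at -5.82 to -4.97 and at -1.10 to 1.07. Setting Itgb3 to its bound could not move the median with 0.8 µg, since Itgb3 remained the lowest.

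Between the doses, few members were called. At 4 h, 1 of 8 tested was called (Itga4, lower), where 5.85% of all genes tested were called, and 3 passed the adjusted p alone (Itga4, Itgal and Itgb2, all lower; 12.0% of all genes). At 12 h, 1 was called (Itgb7, higher; 2.79%) and 2 passed p alone, Itgb7 higher and Itgal lower (6.27%). At 24 h, 2 were called (Itgb3 and Itgb7, both higher; 1.56%) and 3 passed p alone, with Itgb2 (5.93%). The median of the members moved from -0.21 at 4 h to 0.17 at 12 h and 0.37 at 24 h, beside -0.02, 0.01 and 0.02 over all genes. Without 0.8 µg replicate 1 the count at 4 h became 3, with Itgal and Itgav added, and without 80 µg replicate 1 or 2 it became 2. Itgae was too low to be tested for the dose.

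A call at 1 time and not at another does not test a change over time, so an interaction term between dose and time was tested in the 18 immunized libraries. It passed for 4 of the 9 members, while Itgae was too low to be tested. Of all genes tested, 10.4% passed. The 4 members were Itgb2 (adjusted p = 4.14e-08), Itgb7 (0.000357), Itga4 (0.000715) and Itgal (0.0102). For Itga4 and Itgal the dose difference was smaller at the later times than at 4 h (Itga4 -1.49, -0.14 and -0.23 at 4, 12 and 24 h, Itgal -0.996, -0.48 and -0.34). For Itgb7 it went from -0.58 to 1.00 and 1.10, and for Itgb2 from -0.89 to -0.31 and 0.42. The interaction did not pass for Itgb3 (adjusted p = 0.249), whose counts at 4 h were few, nor for Itga6 (0.971), Itgav (0.651) or Itgb1 (0.580). That of Itgal was lost without 0.8 µg replicate 3 (adjusted p = 0.0793) or 80 µg replicate 3 (0.0688) of the 4 h groups.

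**Figure D3:**
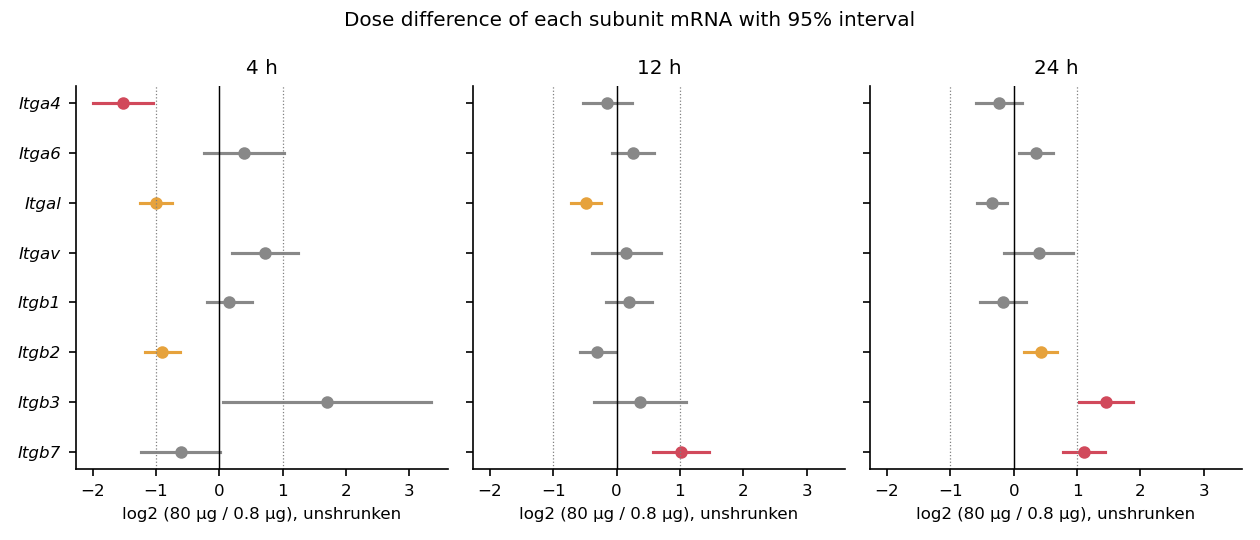
Unshrunken log2 difference between 80 µg and 0.8 µg (dot) with its 95% interval (line) for 8 members at 4, 12 and 24 h, in red where called, in orange where the adjusted p alone passed and in grey otherwise. Itga4 was lower with 80 µg at 4 h, and Itgb3 and Itgb7 were higher at 24 h.

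Because alpha and beta chains work in pairs, the ratio of partner mRNAs was taken within each library, as log2 of normalised read counts + 0.5, and read only for its change between groups. The ratio of Itgb7 to Itgb1, the alternative partners of alpha 4, was 1.91 ± 0.32 in control, -4.03 ± 0.73 and -4.70 ± 0.22 at 4 h with 0.8 µg and 80 µg, -2.90 ± 0.37 and -1.99 ± 0.33 at 12 h, and 0.45 ± 0.19 and 1.76 ± 0.30 at 24 h. At 24 h the high-dose libraries overlapped with control and the low-dose libraries lay under both. The ratio of Itga4 to Itgb1 was 2.38 ± 0.34 in control, -1.94 ± 0.36 and -3.60 ± 0.19 at 4 h, and 1.38 ± 0.26 and 1.35 ± 0.47 at 24 h, where the doses overlapped. The LFA-1 pair, Itgal to Itgb2, was at 0.76 ± 0.17 in control and stayed at 0.96 ± 0.24 and 0.86 ± 0.12 at 4 h, so that both chains moved together when they dropped. At 12 h it was 1.90 ± 0.08 with 0.8 µg and 1.72 ± 0.27 with 80 µg, above control at both doses, which overlapped. At 24 h it was 1.64 ± 0.07 with 0.8 µg and 0.87 ± 0.08 with 80 µg, with no overlap. Itgav to Itgb3 rose from -2.50 ± 0.23 in control to 4.69 ± 0.81 at 4 h with 80 µg and was at -2.07 ± 0.20 at 24 h with 80 µg and -0.98 ± 0.21 with 0.8 µg, where the libraries of both doses still lay above those of control. These ratios are descriptions without a test. That of Itgav to Itgb3 at 4 h with 0.8 µg, 5.43 ± 1.94, rests on 4 counts of Itgb3 and depends on the pseudocount.

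**Figure D4:**
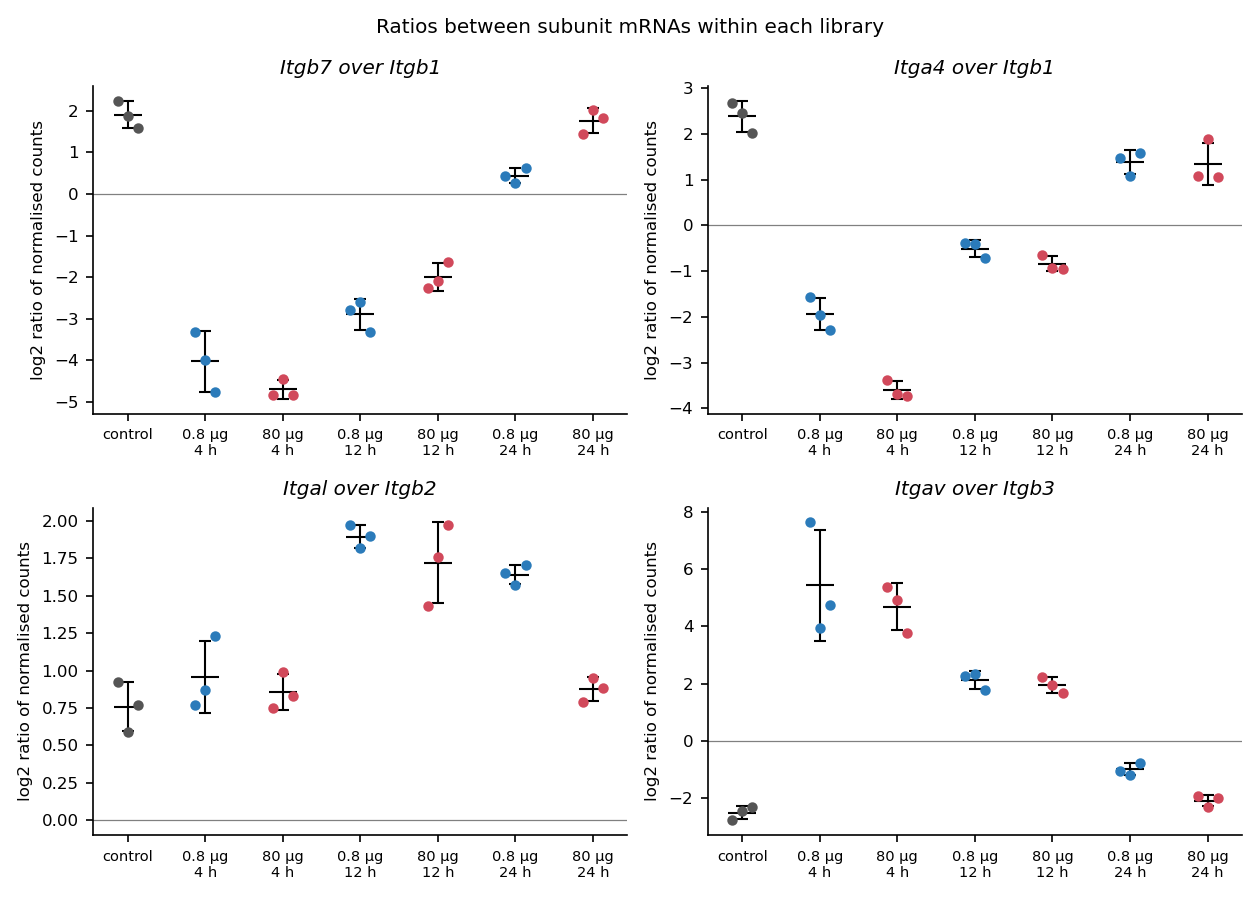
Log2 ratio of normalised read counts (+ 0.5) of 4 pairs of subunit mRNAs within each library (dots), with group mean and SD (black). At 24 h the Itgb7 to Itgb1 ratio with 80 µg (1.76) was near control (1.91), and the Itgal to Itgb2 ratio with 0.8 µg (1.64) was above it (0.76).

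The genes whose rlog values ran most like those of the 3 members called for dose were taken from 8752 genes over the 21 libraries, as a description without a test, since all share the same groups. For Itga4 they were Top2b (Pearson r = 0.985), a DNA topoisomerase, Otulinl (0.985) and Arhgap25 (0.984), a Rac GTPase-activating protein. For Itgb7 they were Rasa3 (0.985), a Ras and Rap GTPase-activating protein, Rasgrp2 (0.984), the Rap1 exchange factor CalDAG-GEFI, and Ctdsp2 (0.983). For Itgb3 they were Nsd3 (0.982), a histone methyltransferase, Hid1 (0.976) and Acp5 (0.975), the tartrate-resistant acid phosphatase. Among the members, Itgb3 and Itgb7 had an r of 0.969, Itga4 and Itga6 0.946, and Itgal and Itgb2 0.528. Itgb1 ran against the 4 that fell, with r from -0.78 to -0.71.

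Many genes of the machinery that switches integrins on were also called lower than control. Of 26 genes listed for integrin activation and adaptors, 22 were tested. At 4 h 13 were called lower and 1 higher with 0.8 µg, and 15 lower with 80 µg, with median log2 fold changes of -1.52 and -1.53 beside -0.13 and -0.15 over all genes. Of all genes tested, 23.4% and 25.1% were called lower there. At 12 h 11 of the 22 were lower at either dose (20.5% and 20.1% of all genes). At 24 h 1 was lower with 0.8 µg, a share near the 5.84% of all genes. Rasgrp2, which activates Rap1 downstream of calcium and diacylglycerol, had 1248 ± 15.1 normalised read counts in control, 30.7 ± 9.14 at 4 h with 0.8 µg and 12.97 ± 9.83 with 80 µg, a dose difference of log2 -1.24 (adjusted p = 0.000486). At 24 h it was at 35.4% of control with 0.8 µg and 67.4% with 80 µg. Fyb (ADAP), the adaptor that couples the T cell receptor to LFA-1, fell from 3305 ± 141 to 205 ± 24.7 with 0.8 µg and 74.6 ± 20.1 with 80 µg at 4 h (dose log2 -1.44, adjusted p = 1.84e-18). These were the 2 of 22 called between doses at 4 h (5.85% of all genes). The count for this list became 1 without 80 µg replicate 2 or 3, or in the fit to 6 libraries alone. Talin (Tln1) and kindlin-3 (Fermt3), named after their values were seen because they bind the beta tail, were at 36.5% and 29.7% of control at 4 h with 0.8 µg and at 29.1% and 28.1% with 80 µg. At 24 h both were at or above their control means, at 114% for Tln1 at either dose and at 109% and 138% for Fermt3.

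Among 29 genes of the adhesion complex and cytoskeleton, 24 were tested at 4 h, of which 14 were called lower with 0.8 µg and 15 lower and 1 higher with 80 µg, with medians of -1.38 and -1.49, where 23.4% and 25.1% of all genes tested were called lower and, with 80 µg, 18.4% higher. Between doses at 4 h, 3 of the 24 were called, all lower, where 5.85% of all genes tested were called in either direction. They were Ptk2 (focal adhesion kinase), with raw counts of only 1, 6 and 1 against 8, 16 and 30 (log2 -2.49, adjusted p = 0.00760, named after its values were seen), and, at higher counts, Rhoh, a GTPase of hematopoietic cells (163 ± 22.7 against 463 ± 11.8, log2 -1.496, adjusted p = 3.02e-28), and Dock2, a Rac activator needed for lymphocyte migration (262 ± 33.2 against 640 ± 29.9, log2 -1.29, adjusted p = 1.05e-19). Of 10 tetraspanins and lateral partners, 9 were tested against control at 4 h, where 3 were called higher at either dose, 4 lower with 0.8 µg and 3 lower with 80 µg, where 17.3% and 18.4% of all genes were called higher and the shares called lower were those just given. Between doses, 2 of the 9 tested were called higher and 1 lower at 4 h, and 1 higher and 1 lower at 12 h. At 24 h 8 were tested, with 0 called higher and 2 lower. Of all genes tested, 5.85%, 2.79% and 1.56% were called in either direction at 4, 12 and 24 h. Cd53 was higher with 80 µg at 4 h (3243 ± 261 against 1059 ± 245, log2 1.61, adjusted p = 3.09e-21) and 12 h (log2 1.10), and Cd9 was higher at 4 h (40.9 ± 6.63 against 15.4 ± 2.18). Cd226 (DNAM-1), which associates with LFA-1, was lower with 80 µg at 4 h (60.9 ± 11.7 against 189 ± 48.5, log2 -1.60, adjusted p = 1.28e-11) and at 12 h (51.8 ± 12.4 against 313 ± 33.0, log2 -2.56, adjusted p = 1.81e-29). Without 0.8 µg replicate 3, or in the fit to 6 libraries, the count for this list at 12 h went from 2 to 1. At 24 h Cd82 (log2 -1.13) and Cd81 (-1.04) were lower with 80 µg. Leaving out 80 µg replicate 2 or 0.8 µg replicate 3, or fitting 6 libraries, brought the count for this list at 24 h to 1.

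Of 14 ligands of these integrins, 5 were tested at 4 h, of which 2 were called higher and 1 lower with 0.8 µg, and 2 higher and 2 lower with 80 µg, too few genes to be read against the shares of all genes given above. Icam1, the ligand of LFA-1, rose from 26.3 ± 15.2 in control to 206 ± 22.3 with 0.8 µg and 254 ± 11 with 80 µg at 4 h (log2 2.90 and 3.21) and was back at 32.4 to 35.86 at 12 h and 24 h. Icam1 was named after its values were seen. Vcam1, the ligand of VLA-4, was lower with 80 µg at 12 h (8.71 ± 7.63 against 39.0 ± 9.96, log2 -1.92, adjusted p = 0.0437), a call lost without 0.8 µg replicate 1 or 3 or 80 µg replicate 2 or 3. Of the 17 integrin subunits that are not members, 12 passed the filter on low counts. Between doses, Itgb8, a chain that binds latent TGF-beta, was higher with 80 µg at 4 h on raw counts of 11, 7 and 16 against 0, 3 and 0, and Itga9 was lower with 80 µg at 12 h on 2, 0 and 0 against 11, 15 and 7. Both were named after their values were seen. The Itgb8 call was lost without 0.8 µg replicate 1 or 80 µg replicate 1 or 3 and in thinned libraries, and the Itga9 call without 80 µg replicate 2 and in the fit to 6 libraries. The myeloid markers Itgam, Itgax and 8 others summed to at most 35.0 CPM in any library.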

How the data were processed

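The 21 libraries were forward QuantSeq 3′ mRNA libraries of sorted splenic CD4+ T cells. Per the study's methods, the authors trimmed reads with Bbduk, aligned them to GRCm38 with STAR (2.5.2a in the submitters' processing notes, which name the build mm10) and made the deposited raw counts per Ensembl gene with HTSeq-count. The annotation release, strand setting and use of molecular identifiers are not given in the sources used here. The deposited log2 values are the authors' rlog transformation, used here for matching members by symbol and for correlations. DESeq2 1.42.0 (R 4.3.3) was fitted to the counts of all 21 libraries, after removal of genes under 10 counts in all, with Wald tests, Benjamini-Hochberg adjustment over all genes tested and shrinkage with a normal prior. The interaction used a likelihood ratio test on 18 libraries. edgeR 4.0.16, TMM, no filter, unshrunken values, p alone, 6 libraries, thinned counts, a replicate block and leaving out each library were the alternatives. Scripts were tested on simulated counts. Coordinates and exon overlaps are from GENCODE on GRCm38, and promoters from RefSeq. Counts per library limit precision, and counting error only is covered by the floor of 3 counts. The members and gene lists were chosen with earlier results of these data known. Named genes were the 9 members, with every library for those called between doses, up to 2 called genes each way per list and dose comparison (mean normalised read count 20 or more), and the 3 genes most like each member called for dose. The lists named were integrin activation and adaptors, adhesion complex and cytoskeleton, ligands, tetraspanins and partners, other subunits, and markers of CD4 T, platelet, myeloid, B, CD8 T and NK, regulatory T and erythroid cells. Summed over any library, CD8 T and NK markers reached 68.4 CPM, regulatory T cell markers 1301 CPM and erythroid markers 212 CPM. One B cell marker beside the 6 summed is not reported here. No 2 libraries held identical values.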

Additional observations from a re-analysis of the deposited data

Results flagged for a closer look

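The dose difference changed over time in 4 members by the interaction test of DESeq2. The range of the shrunken log2 dose difference over 4, 12 and 24 h was 1.68 for Itgb7 (adjusted p = 0.000357), 1.35 for Itga4 (0.000715), 1.32 for Itgb2 (4.14e-08) and 0.65 for Itgal (0.0102). The sorting gate changes with the time, so time and gate cannot be told apart in these ranges.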

How the results depend on the processing

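Fold changes of members were recomputed under each alternative: 602 of 637 values outside the leave-outs and 438 of 480 values with 1 library left out kept direction and side of the threshold. Members called between doses at 4 h went from 1 to 2 with unshrunken values and to 3 on adjusted p alone, at 12 h from 1 to 2 on p alone and to 0 in the fit to 6 libraries, and at 24 h from 2 to 1 in the fit to 6 libraries. Against control at 24 h they went from 3 to 5 (0.8 µg) and from 0 to 2 (80 µg) on p alone. With 1 library left out, the dose counts ran from 1 to 3 at 4 h, 0 to 1 at 12 h and 1 to 2 at 24 h. Against control they ran from 4 to 5, 4 to 4 and 1 to 3 with 0.8 µg and from 5 to 8, 4 to 5 and 0 to 0 with 80 µg at 4, 12 and 24 h, and the interaction from 3 to 4. With the replicate number as a block (replicate block), the dose counts were 1, 1 and 2 and the interaction count 4, and Itgae with 80 µg at 4 h against control lost its call (adjusted p = 0.0542) while no other call changed. No clear pairing of libraries by number was seen. Of 63 correlations of same-numbered libraries, 6 were over 0.1 (range -0.12 to 0.16). In 0 of 9 comparisons was every pair over 0.1, and 9 of 21 libraries correlated best with their own number. Between doses, the mean for same numbers was above that for other numbers at 4 h (0.059 against -0.029) and 12 h (0.076 against -0.037). It was below at 24 h (-0.031 against 0.016). Values that changed sign were small and uncalled, and the cause was not tested. Itgal at 4 h with 0.8 µg against control was -0.01 as reported, 0.0086 by edgeR, 0.0084 by TMM, 0.011 in 6 libraries and -0.082 to 0.065 with a library left out. Against control with 80 µg at 12 h, Itgal was 0.027 in 6 libraries and -0.16 to 0.051 with a library left out, and Itgav was 0.028 by edgeR, 0.026 by TMM, 0.071 in 6 libraries and -0.25 to 0.14 with a library left out. The dose at 12 h for Itgav was -0.019 thinned and -0.093 to 0.28 with a library left out, that for Itga4 -0.29 to 0.0064 and that for Itgae -0.15 to 0.83. At 24 h with 80 µg against control, Itgb1 ran from -0.042 to 0.40 and Itgb7 from -0.027 to 0.093. Counts were few for Itgae throughout and for Itgb3 at 4 h, and the part of depth in this was not tested.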
